A study of Homo sapiens with 30 samples.

Results

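Non-homologous end joining is the repair route that rejoins the broken ends of a DNA double strand directly, without a sister copy as template. The set described here holds 10 genes of its core machinery: PRKDC, XRCC5, XRCC6, LIG4, XRCC4, NHEJ1, PAXX, DCLRE1C, POLL and POLM. They were chosen by name as members of the pathway, though with earlier results of these data known. All 10 were found among 20037 protein-coding genes of chromosomes 1 to 22, X and Y. For each gene, peaks were taken that overlapped the gene body or the 2 kb around its ends in build hg38.

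The study grew neural progenitor cells as a monolayer in N2/B27/FGF medium from the established embryonic stem cell line H9, and edited RING1 and RNF2 in some of them with CRISPR-Cas9. It made 30 CUT&RUN libraries across 5 genotypes, a method in which an antibody guides a nuclease that releases the DNA under the bound protein. Used here are 4 libraries of wild-type cells, which carry no edit of either gene, 2 made with an anti-RING1 and 2 with an anti-RNF2 antibody. Each is represented by 1 list of called peaks. One RING1 and one RNF2 list share a number that the labels do not tie to a replicate, so the pairs are called set A and set B. The labels do not say whether the replicates came from separate cultures, and no other genotype was analysed here.

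RING1 and RNF2 are paralogs, either of which can serve as the catalytic subunit of Polycomb repressive complex 1, the enzyme that attaches a single ubiquitin to histone H2A. The complex is best known for holding developmental genes silent, and variant forms of it are also found at CpG-rich promoters of active genes. In end joining, the Ku heterodimer (XRCC5 and XRCC6) rings the broken end and recruits the kinase encoded by PRKDC. The nuclease Artemis (DCLRE1C) and the polymerases POLL and POLM prepare the ends, and ligase LIG4 seals them with XRCC4, NHEJ1 (XLF) and PAXX. The developing brain depends on this route, since loss of XRCC4 or LIG4 kills newborn neurons in mice.

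Every one of the 10 genes had peaks of both proteins at or close to its start in set A, 4 had one of RNF2 in set B, and none had one of RING1 there. RNF2 was thus found in both sets at PRKDC, XRCC5, NHEJ1 and POLM. In the gene body or the 2 kb around it, 50.5% of all protein-coding genes had RING1 in set A and 60.7% had RNF2. The shares over all genes were 1.58% for RING1 in set B, 25.2% for RNF2 in set B and 23.9% for RNF2 in both sets. RING1 and RNF2 of set A met together at 47.5% of all genes. Among the 9525 genes with both proteins in set A, 46.2% had RNF2 in set B, against 4 of the 10 end-joining genes. The absence of RING1 from set B is thus what most genes show, and the count of 4 for RNF2 lies near the share of comparable genes. The lists differ in length, from 659 (RING1) and 5901 (RNF2) peaks in set B to 12891 and 16263 in set A. How deeply each library was sequenced is unknown here, and a gene without a peak may still carry the protein. No test was made of the members against other genes or across samples, since the lists hold no read counts.

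**Figure D1:**
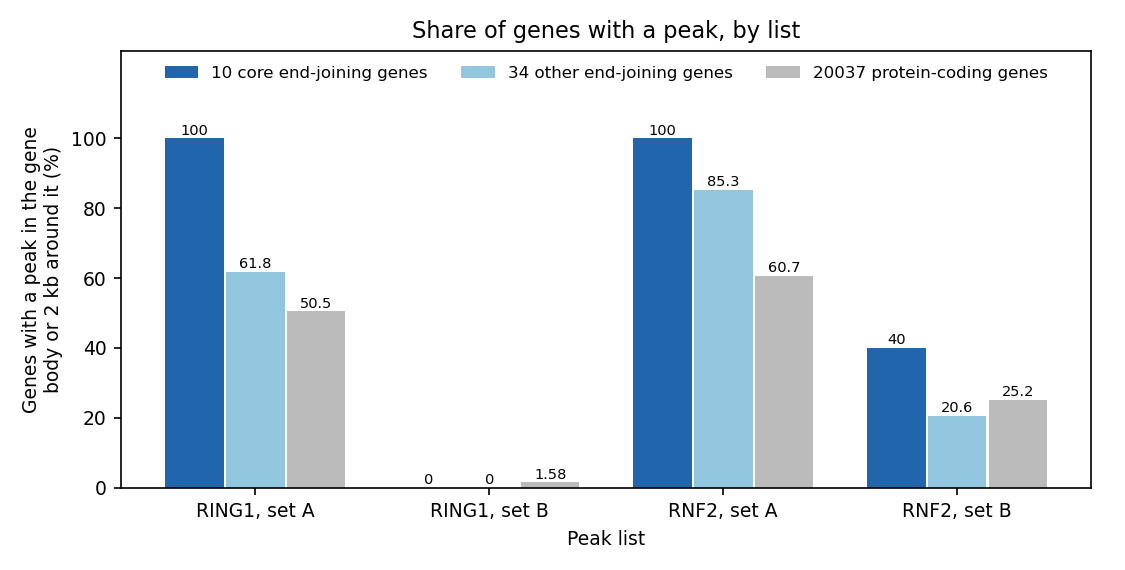
Share of genes (%) with a peak in the gene body or the 2 kb around it, for each peak list. Dark blue bars are the 10 end-joining genes, light blue bars 34 other end-joining genes and grey bars all 20037 protein-coding genes. In set A all 10 genes had both proteins, and in set B none had RING1 and 4 had RNF2.

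A wide gene meets more peaks by its length alone, and these genes run from 1.6 kb (PAXX) to 296.9 kb (XRCC4). With the window limited to 2 kb around either gene end, the members' counts stayed at 10, 0, 10 and 4 for RING1 in sets A and B and RNF2 in sets A and B. The shares over all genes were then 45.6%, 1.32%, 56.1% and 21.7%. Around the 5′ end alone, known for 8 of the 10, all 8 had RING1 and RNF2 in set A, where 47.9% and 59.3% of all genes did. NHEJ1 and POLM were the 2 of those 8 with RNF2 in set B there, a share of all genes of 22.0%. Most peaks of the members lay at the start: 10 of 13 RING1 peaks in set A, 10 of 11 RNF2 peaks in set A and all 4 in set B. No such share over the whole lists is set beside these counts, so they do not show a trait particular to the members. For PRKDC, XRCC5 and the PRKDC neighbour MCM4 the annotation used gives no strand, and the annotated gene end nearest to the peak stands for the start. A peak within 2 kb of either end of these genes thus counted as at the start.

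The starts of 6 of the 10 genes lie close to the start of a neighbour, and their peaks cover ground that belongs to both. These pairs are PRKDC with MCM4 (a helicase subunit for DNA replication), XRCC6 with DESI1, LIG4 with ABHD13, XRCC4 with TMEM167A, POLL with DPCD and DCLRE1C with MEIG1. Distances between the nearest starts of a pair were 805, 252, 43, 153, 51 and 132 bp in that order. Across all protein-coding genes 21.5% had another gene's start within 2 kb of their own, and 27.2% of the genes with RNF2 in set A did, where genes of unlisted strand were counted at both ends. XRCC5, NHEJ1, PAXX and POLM had no other protein-coding start within 2 kb of their peaks. No peak in any window belonged to a neighbour's start alone.

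Sequences between or before these starts are shown for their CpG dinucleotides, the sites at which variant Polycomb complexes can be recruited through KDM2B, which are in capitals. The RNF2 peaks of PAXX in set A and of NHEJ1 in set B lay wholly inside the gene and did not reach the stretch printed for it. For NHEJ1, POLM and PAXX the 250 bases before the start are given, as genes that do not share a start. For the other four the stretch between the paired starts is given, which for XRCC6 is 250 of its 251 bases. Each runs 5′ to 3′ in the direction of the end-joining gene, from RefSeq on GRCh38.p14.
NHEJ1, before the start, chr2:219160816-219161065, minus strand: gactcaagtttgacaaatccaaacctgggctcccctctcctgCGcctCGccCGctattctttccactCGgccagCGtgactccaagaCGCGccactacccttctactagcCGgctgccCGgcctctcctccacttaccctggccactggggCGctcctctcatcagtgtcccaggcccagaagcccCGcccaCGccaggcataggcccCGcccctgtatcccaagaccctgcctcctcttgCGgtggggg
POLM, before the start, chr7:44082531-44082780, minus strand: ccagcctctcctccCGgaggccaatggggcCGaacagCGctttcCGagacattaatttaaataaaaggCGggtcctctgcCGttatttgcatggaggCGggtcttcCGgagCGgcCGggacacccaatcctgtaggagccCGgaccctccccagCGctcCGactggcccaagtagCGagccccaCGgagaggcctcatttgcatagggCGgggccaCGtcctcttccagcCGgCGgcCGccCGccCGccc
PAXX, before the start, chr9:136992172-136992421, plus strand: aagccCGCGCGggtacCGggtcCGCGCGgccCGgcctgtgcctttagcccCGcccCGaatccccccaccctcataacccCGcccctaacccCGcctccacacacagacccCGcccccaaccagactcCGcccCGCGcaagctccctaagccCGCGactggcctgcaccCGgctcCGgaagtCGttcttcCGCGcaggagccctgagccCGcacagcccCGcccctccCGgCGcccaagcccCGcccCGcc
XRCC6, between the starts of XRCC6 and DESI1, chr22:41621045-41621294, plus strand: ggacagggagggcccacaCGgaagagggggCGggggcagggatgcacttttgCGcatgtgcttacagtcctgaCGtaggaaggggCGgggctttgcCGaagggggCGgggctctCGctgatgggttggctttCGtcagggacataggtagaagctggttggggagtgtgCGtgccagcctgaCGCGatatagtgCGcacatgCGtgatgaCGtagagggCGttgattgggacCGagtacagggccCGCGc
XRCC4, between the starts of XRCC4 and TMEM167A, chr5:83077395-83077546, plus strand: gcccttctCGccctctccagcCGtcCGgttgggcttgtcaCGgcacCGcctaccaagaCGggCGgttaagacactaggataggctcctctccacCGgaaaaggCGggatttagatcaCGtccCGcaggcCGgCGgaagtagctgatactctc
LIG4, between the starts of LIG4 and ABHD13, chr13:108218350-108218391, minus strand: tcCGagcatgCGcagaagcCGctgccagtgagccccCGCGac
POLL, between the starts of POLL and DPCD, chr10:101588271-101588320, minus strand: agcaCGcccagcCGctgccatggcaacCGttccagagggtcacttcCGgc
The CpG counts of these stretches were 14 for NHEJ1, 22 for POLM, 29 for PAXX and 19 for XRCC6 in 250 bases, 13 in 152 bases for XRCC4, 5 in 42 for LIG4 and 4 in 50 for POLL. The whole region between the LIG4 and ABHD13 starts is thus shorter than the DNA around a single nucleosome, and both peaks there extend into both genes.

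The PRKDC gene encodes the catalytic subunit of DNA-dependent protein kinase (chromosome 8, 47773111 to 47960136). Its RING1 peak in set A ran from 47960322 to 47960862 with a fold enrichment of 3.39, the authors' ratio of signal over background at a peak. Its RNF2 peaks had a fold of 4.59 in set A (47960080 to 47962048) and 4.39 in set B (47960296 to 47961610). The RING1 peak lay wholly inside the 804 bp between PRKDC and MCM4. The RNF2 peaks reached further into MCM4: in set A 1108 bp of the peak lay in MCM4 and 57 bp in PRKDC, and in set B 670 bp and 0 bp. The midpoint of the set B peak was 12 bp from the MCM4 end that faces PRKDC and 817 bp from the facing end of PRKDC. All 3 peaks had their midpoint nearer to MCM4. In its own list the RING1 peak exceeded or equalled the fold of 10.1% of peaks, while the RNF2 peaks did so for 69.3% in set A and 82.6% in set B.

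XRCC5 encodes Ku80, the larger Ku subunit (chromosome 2, 216109348 to 216206293). At its start RING1 of set A had a fold of 3.53, RNF2 of set A 5.71 and RNF2 of set B 3.12. The RNF2 peak stood high in set A, at the 88.1 percentile of its list (the percentage of its peaks with an equal or lower fold), and near the bottom of the set B list, at the 1.3 percentile. In set A it ran from 927 bp before the start to 422 bp after it, whereas the set B peak ended 64 bp before the start. A second site inside the gene, between 5231 and 5908 bp from the start, held RNF2 of set A at 3.70 and RING1 of set A at 5.17. At this inner site RING1 stood at the 85.8 percentile of its list and RNF2 at 33.2, whereas at the start RING1 stood at 20.3. XRCC6 encodes Ku70, the partner of Ku80 (chromosome 22, 41621295 to 41664041). Its RING1 peak of set A had a fold of 3.58 and its RNF2 peak of set A 4.98, with no peak of either protein in set B. The RNF2 peak was 1499 bp wide, with 768 bp in DESI1 and 480 bp in XRCC6, and its midpoint was 18 bp from the DESI1 start. Both Ku genes thus carried RNF2 above the median of the set A list and RING1 at the start below it.

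The ligation genes spanned the whole range of the set A folds at the starts. NHEJ1, whose product XLF bridges the ends beside XRCC4 (chromosome 2, 219069357 to 219160815), had a RING1 fold of 7.52 in set A and RNF2 folds of 8.12 and 5.84 in sets A and B. These were the highest values of the 10 genes in each of the 3 lists, at the 97.7, 97.3 and 96.0 percentiles. Among genes with a peak, 356 of 10110 had a higher RING1 fold in set A, and 551 of 12160 and 286 of 5056 had a higher RNF2 fold in sets A and B. The peaks were of ordinary width, 677 bp, 1324 bp and 478 bp, and lay on the first bases of the gene, from 143 bp before to 1180 bp after the outermost start. A second listed start lies at 219160555, and the midpoint of the RNF2 peak of set B was 2 bp from it, that of RING1 in set A 30 bp. NHEJ1 was also the only one of the 10 genes left in each of these 3 lists when all lists were kept to their 659 most significant peaks. At that length 1.82% of all genes had RING1 of set A and RNF2 of both sets. The gene downstream of NHEJ1 is IHH, a hedgehog ligand gene and so of a developmental class; it was looked at for its position, outside the rule for named genes. It had RNF2 at 4.19 in set A and at 3.99 in the other set, in peaks of 5480 bp and 4203 bp that ended 6.3 kb and 6.5 kb from the NHEJ1 body. The NHEJ1 peaks at the other end of that gene were narrower and higher than those of IHH.

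LIG4, the ligase of the pathway (chromosome 13, 108207442 to 108218349), had a RING1 fold of 3.40 and an RNF2 fold of 4.08 in set A and no peak in set B. Its peaks straddled the stretch printed above, with 322 bp of the RNF2 peak in ABHD13 and 482 bp in LIG4. XRCC4, the scaffold of the ligase (chromosome 5, 83077547 to 83374473), had the lowest values of the 10 at its start, 3.23 for RING1 and 3.44 for RNF2 in set A, and no peak in set B. These lay at the 2.8 and 17.5 percentiles of their lists, although XRCC4 is the longest of the genes. PAXX, a structural relative of XRCC4 and XLF (chromosome 9, 136992422 to 136993976), had 3.79 for RING1 and 4.28 for RNF2 in set A and no peak in set B. Its RNF2 peak of 262 bp was the narrowest of the set and began 37 bp inside the gene. It was also the one RNF2 peak of set A at the starts that was narrower than the RING1 peak there, of 366 bp. The 4 ligation genes therefore included the highest and the lowest folds of set A at the starts.

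The 3 end-processing genes all had peaks of both proteins at the start in set A. DCLRE1C, the gene of the Artemis nuclease (chromosome 10, 14897359 to 14954432), had 4.50 for RING1 and 5.10 for RNF2 in set A and no peak in set B. Its peaks ran from 9 bp before to 725 bp after the outermost start, and 214 bp of the RING1 peak and 211 bp of the RNF2 peak lay in MEIG1, whose annotation overlaps that of DCLRE1C there. A further pair of peaks, RING1 at 3.89 and RNF2 at 4.11 in set A, lay 4676 and 4677 bp beyond DCLRE1C, in MEIG1, and outside the window. POLL, the gene of DNA polymerase lambda (chromosome 10, 101578882 to 101588270), had 4.02 for RING1 and 4.07 for RNF2 in set A and no peak in set B, both close to the medians of their lists (3.99 and 4.04). A weaker RING1 peak of set A, at 3.22, lay past the far end of POLL and within 2 kb of it. POLM, the gene of DNA polymerase mu (chromosome 7, 44072062 to 44082530), had 4.30 for RING1 in set A and 6.0 and 3.35 for RNF2 in sets A and B. The 3 POLM peaks overlapped one another before and across the start, and the RNF2 peak stood at the 90.6 percentile in set A and at 17.5 in set B. A second RING1 peak of set A, at 3.5, lay in the gene between 9585 and 9964 bp from the start with no RNF2 peak beside it. Its midpoint was nearer to the neighbour PGAM2, at 7188 bp, than to the POLM start, at 9774 bp.

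**Figure D2:**
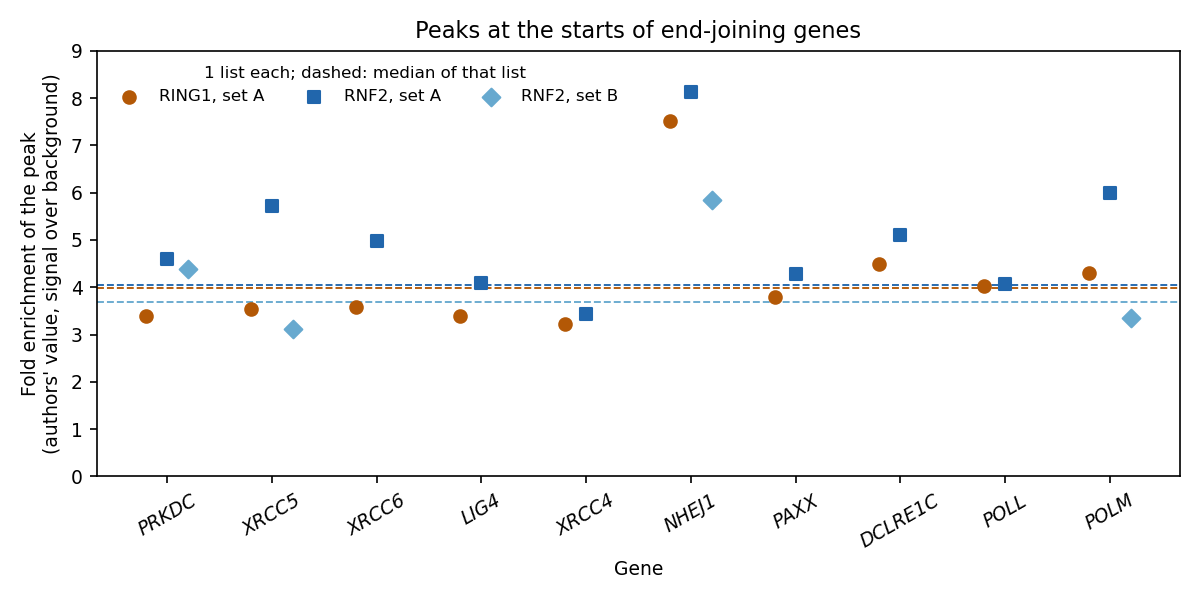
Fold enrichment (the authors' ratio of signal over background) of the peak at the start of each end-joining gene, in the 3 lists that had one. Circles are RING1 of set A, squares RNF2 of set A and diamonds RNF2 of set B, with 1 value per list and no error. Dashed lines are the medians of all peaks of the list (3.99, 4.04 and 3.69). NHEJ1 is highest in all 3, and XRCC4 is lowest in both lists of set A.

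Set side by side, the order of the 10 genes differed between the proteins and the sets. RNF2 at the start lay above the median fold of its set A list in 9 of 10 genes, the exception being XRCC4, while RING1 did so in 4 of 10 (NHEJ1, DCLRE1C, POLL and POLM). LIG4 (4.08) and POLL (4.07) barely passed that RNF2 median of 4.04, which is over all peaks and not only those at gene starts. Ranked by highest RNF2 fold among genes with a peak in set A, XRCC4, POLL, LIG4 and PAXX lay below the middle. Their percentiles were 10.5, 38.6, 39.1 and 46.9, and the other members lay above the middle. Taking each gene's highest peak, the median of the 10 was 3.90 for RING1 and 4.79 for RNF2 in set A, beside 4.20 and 4.35 over all genes with a peak. In set B the 4 genes had a median RNF2 fold of 3.87 and all genes with a peak 3.81. NHEJ1 and PRKDC lay above the set B list median of 3.69, and XRCC5 and POLM below it. The 6 genes without RNF2 in set B had set A folds from 3.44 (XRCC4) to 5.10 (DCLRE1C), and the 4 with it had 4.59 to 8.12, so the groups overlapped. DCLRE1C and XRCC6 (4.98) had higher set A folds than PRKDC (4.59) and yet no set B peak. With 1 value per list, neighbours in these orders have no error by which to tell them apart.

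**Figure D3:**
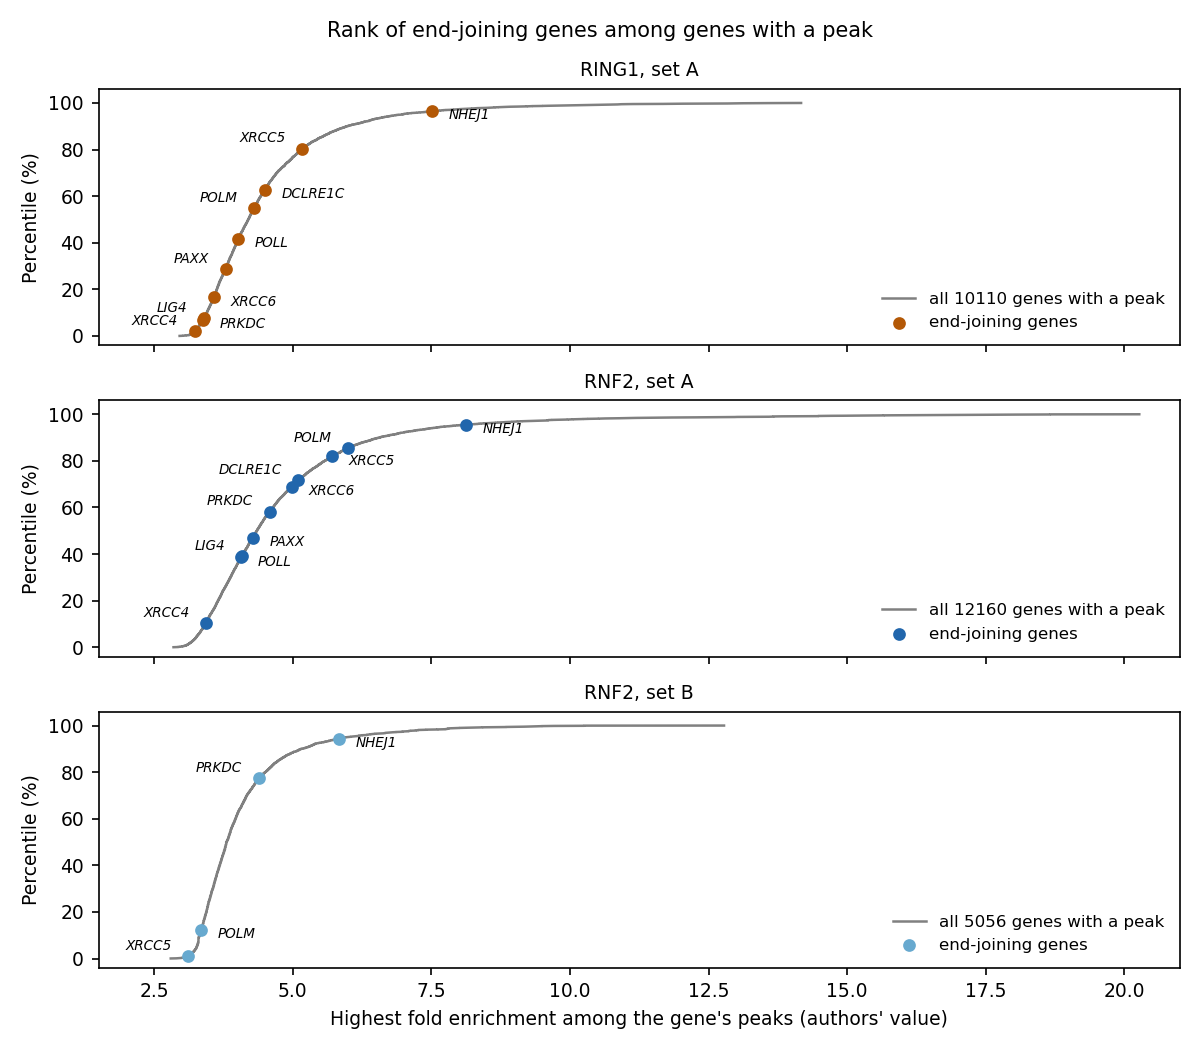
Percentile of each end-joining gene (points, named) by its highest fold enrichment among all genes with a peak in that list (grey curve), for RING1 of set A, RNF2 of set A and RNF2 of set B. The x axis is the authors' fold and the y axis the percentage of genes with a peak at or below it. NHEJ1 lies at 96.5%, 95.5% and 94.3%, XRCC4 is near the foot of both set A panels, and the rest spread over the curve.

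In position, the peaks of the 2 proteins were compared at each start. The RING1 and RNF2 peaks of set A overlapped at the start of all 10 genes, and 5 RING1 peaks (PRKDC, XRCC6, XRCC4, NHEJ1 and POLM) lay wholly inside the RNF2 peak. The shared part of the RING1 peak was smallest at PAXX, with 44.8%. RNF2 peaks were the wider in 9 of 10 genes, from 1.15 times (XRCC5) to 3.64 times (PRKDC). Overlap and relative width were not counted at other genes with both proteins. Whether these traits are particular to the members was not tested. The set B peaks of PRKDC, NHEJ1 and POLM lay wholly within those of set A, and 81.1% of the XRCC5 peak did. The widest peak at a start, of 1969 bp, was RNF2 at PRKDC in set A. In set A the median width at the starts was 592 bp under RING1 and 917 bp under RNF2, beside medians of 704 and 973 bp over the whole lists, and 2 of 10 RING1 and 5 of 10 RNF2 peaks were wider than the median of their list. The start of the gene lay under 9 of 10 peaks of each protein in set A, with PRKDC the exception for RING1 and PAXX for RNF2.

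**Figure D4:**
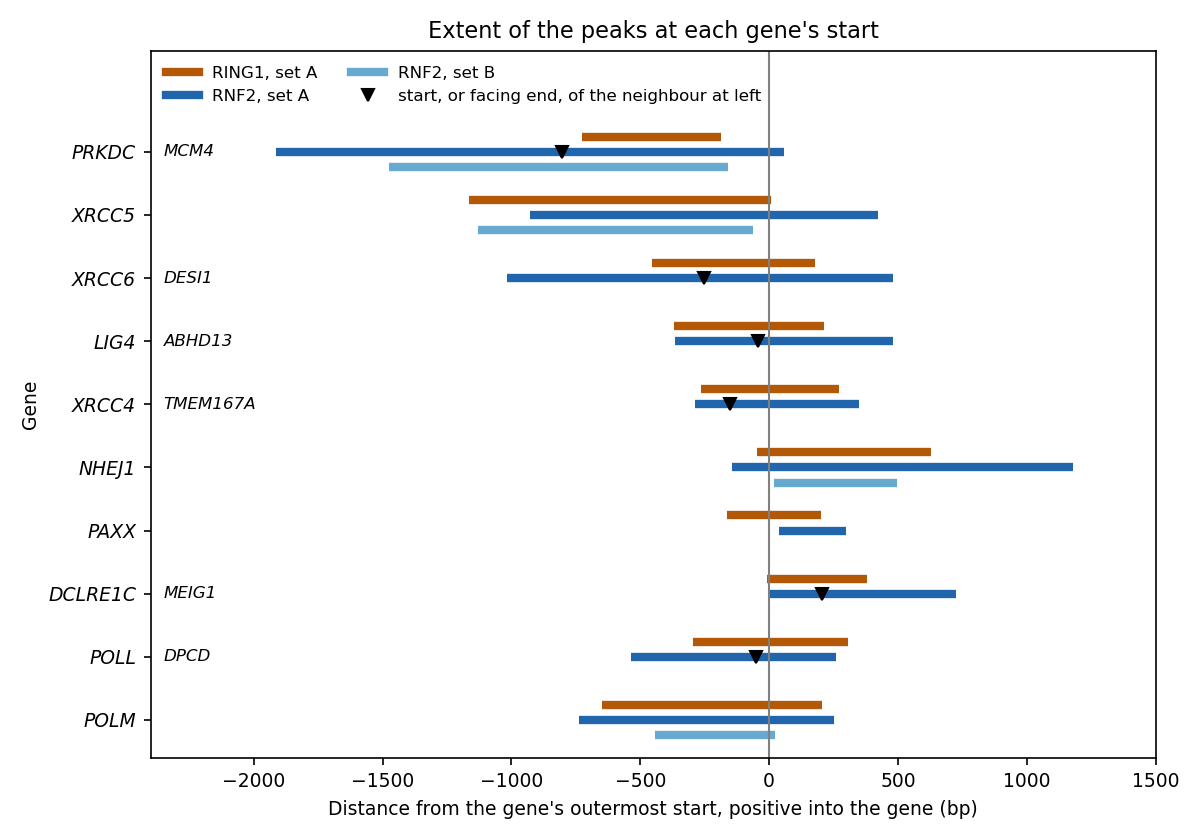
Extent of each peak at the start of the 10 genes, as the distance in bp from the gene's outermost start (grey line at 0, positive into the gene). Brown bars are RING1 of set A, dark blue bars RNF2 of set A and light blue bars RNF2 of set B. Triangles mark the start of the neighbouring gene named at left, or for MCM4 the gene end that faces PRKDC. The RNF2 peaks of PRKDC reach past that end of MCM4, and at 6 genes the peaks cover or flank a neighbour's start.

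For genes with a close neighbour the distance from the peak's midpoint to each start was compared. Of the 6 shared sites, the midpoint was nearer to the neighbour at 4 for RING1 in set A (PRKDC, XRCC6, LIG4 and DCLRE1C) and at 3 for RNF2 in set A (PRKDC, XRCC6 and POLL). PRKDC and XRCC6 were nearer to the neighbour for both proteins, and XRCC4 was nearer to its own start for both, at 3 bp for RING1 and 32 bp for RNF2. At LIG4, DCLRE1C and POLL the 2 proteins gave different answers over distances of 6 to 156 bp, which is less than the width of any of these peaks. Leaving out every peak nearer to a neighbour kept 6 of 10 genes with RING1 and 7 of 10 with RNF2 in set A, and 3 with RNF2 in set B (XRCC5, NHEJ1 and POLM). Under the same rule 43.2%, 52.4% and 20.7% of all genes were left in these 3 lists. Of the genes with a peak, 85.6%, 86.4% and 81.9% kept one, against 60%, 70% and 75% of the members with one.

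Promoter windows from 250 bases before to 50 after the outermost start were found for 8 of the genes, all but PRKDC and XRCC5. Their CpG counts per window had a median of 23.5, from 11 (DCLRE1C) to 38 (PAXX). All 13819 protein-coding genes with such a window had a median of 22, those with RNF2 of set A within 2 kb of the start 28, and those without 8. The median of the 8 thus lay between the lower quartile (20) and the median of the genes with RNF2. Of the members with RNF2 in both sets, PRKDC and XRCC5 had no window, NHEJ1 had 19 and POLM 27. PAXX, with 38, and LIG4, with 35, had RNF2 in set A only. Over all genes with RNF2 of both sets within 2 kb of the start the median was 29, beside the 28 for set A. These windows do not cover all of the DNA under the peaks. They end 50 bases into the gene, whereas the NHEJ1 peaks ended 496 to 1180 bp into it. The DCLRE1C peaks began at most 9 bp before its outermost start, so most of its window lay outside them. Of the short motifs searched on both strands, with overlapping matches counted, the SP box GGGCGG was present in 6 of the 8 windows, in 58.5% of all and in 74.1% of those of genes with RNF2 of set A within 2 kb of the start. The E-box CACGTG was in none of the 8 (8.95% of all and 11.2% of those with RNF2), the E2F motif TTCCCGC in 1, that of PAXX (8.70% and 11.4%), and the YY1 core ATGGCG in 2, those of PAXX and POLL (14.9% and 18.1%). These are matches of letters and not sites known to be bound.

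Around this core, 34 other genes of end joining and of the choice between repair routes were counted in the same windows. RING1 of set A was at 21 of them (61.8%), RNF2 of set A at 29 (85.3%), RNF2 of set B at 7 (20.6%) and RING1 of set B at 0. Over all protein-coding genes the shares were 50.5%, 60.7%, 25.2% and 1.58% in that order. For the 13 genes of break-end choice and protection the set A counts were 8 for RING1 and 10 for RNF2, with 1 for RNF2 in set B. That gene was MAD2L2, the shieldin subunit also known as REV7, with RNF2 at 5.80 and 3.70 and RING1 at 5.18. For 11 accessory processing genes the counts were 6, 9 and 3. Among these, TDP1, which removes trapped topoisomerase 1, had RNF2 at 3.49 and 4.0, and ERCC6L2 had 7.04 and 3.03. The terminal transferase gene DNTT, normally active in lymphocyte precursors, had no peak in any list. For 10 genes of alternative end joining, a route that uses short matching sequences, the counts were 7, 10 and 3. These 3 were PARP1 (4.29 and 3.75), PARP2 (6.07 and 3.71), both sensors of strand breaks, and FEN1 (6.20 and 3.54), a flap nuclease; PARP1 had no RING1 peak. None of these named genes reached the set A RNF2 fold of NHEJ1 or its set B fold.

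The consolidated region file of the series held a region at 4 of the 10 genes, PRKDC, XRCC5, NHEJ1 and POLM, where 22.8% of all genes had one. It thus named the 4 found above in both RNF2 lists, and the file adds no measurement of its own: all 4255 of its regions end where a union of the 4 lists ends and start 1 base before it, and 4239 of those unions held RNF2 in both sets. The regions were 1970, 1587, 1325 and 990 bp wide at the 4 genes in that order.

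At stricter limits few of these genes stayed. With −log10 q of at least 5, RING1 of set A was left at NHEJ1 alone of the 10, RNF2 of set A at XRCC5, XRCC6, NHEJ1, DCLRE1C and POLM, and RNF2 of set B at NHEJ1, where 8.74%, 17.1% and 2.70% of all genes were left. NHEJ1 reached 9.56 for RING1 and 11.98 and 7.77 for RNF2 in sets A and B, and XRCC4 had 1.22 and 1.76 in set A. The lowest value in the lists of set A was 1.02 for RING1 and 1.01 for RNF2, so the XRCC4 peaks lay near the limit at which the lists were drawn. They were not alone in this. The RNF2 peak of XRCC5 in set B had 1.16, where the lowest value of that list was 1.01. RING1 of set A had 1.39 at LIG4, 1.53 at PRKDC and 1.6 at the XRCC5 start.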

How the data were processed

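Per the labels' protocols, an EpiCypher CUTANA CUT&RUN kit and an Illumina NextSeq were used. MACS2 2.2.9.1, deepTools 3.5.2, bedtools 2.30.0, Picard 2.8.1, SAMtools 1.9, BWA 0.7.17 and build hg38 are listed in the submitters' processing notes without roles or options, and the control used for calling is not stated there. The deposited lists are broad peak files, 1 per antibody and set. The fold is the authors' ratio per peak and was used only within a list. The deposited −log10 q is the peak caller's. The deposited consolidated file holds coordinates only.

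Gene positions were RefSeq's on GRCh38.p14, with strand and starts for 15842 genes from its promoter table. A gene was called where a peak shared at least 1 bp with its window. A peak was shared if it lay within 2 kb of the starts of the member and another gene. Named genes were the 10 members, the genes whose starts share their peaks, and other end-joining genes with RNF2 in both sets, of which 1 is not reported here. The members and lists were chosen with earlier results of these data known. The window step was tested on simulated data over 1254 genes of chromosome 2, where all 200 planted genes were called. Python 3.11.15, numpy 2.4.6, pandas 2.3.3 and matplotlib 3.10.9 were used.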

Additional observations from a re-analysis of the deposited data

How the results depend on the processing

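Of 81 counts of members recomputed under other settings, 63 stayed within 1.5 times of the value reported. Some of these could not have moved, so the 63 does not measure stability. Counts of 0 cannot change under a narrower window or a stricter limit, nor counts of 10 under a wider window. No peak belonged to a neighbour's start alone, so leaving such peaks out changed nothing. Counts with 1 set left out repeat those of the other set. With gene bodies alone, or 2 kb around the 5′ end only (8 members with a listed start), the count with RNF2 in set B and in both sets was 2. With gene bodies alone the count with RING1 in set A was 9, as the PRKDC peak lay outside the gene. Under a −log10 q limit of 5 the counts were 1 for RING1 and 5 for RNF2 in set A, 1 for both proteins of set A, 1 for RNF2 in set B and 1 for RNF2 in both sets. With lists of equal length each of these counts was 1, that of NHEJ1. Leaving out peaks nearer to a neighbour's start, a setting chosen after seeing the data, gave 6 for RING1 in set A and 5 for both proteins of set A. Leaving out 1 set, the members counted as having RNF2 in every remaining set ranged from 4 (without set A) to 10 (without set B), and those with RING1 from 0 to 10. Windows of 1 kb or 5 kb, an overlap of 50% and merging of peaks within 1 kb moved no count by more than 1.5 times. Of single folds, RING1 at XRCC5 moved, from 5.17 at its highest peak to 3.53 at the start. No paired analysis was possible because no test was made: the lists hold no read counts, and the number that a RING1 and an RNF2 list share is tied to no replicate by the labels. Depth is unknown, which limits what a missing peak in set B can show.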
